A study of Mus musculus with 30 samples.

Results

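The regions described here are the most strongly transcribed DNase-hypersensitive sites (DHSs) of mouse embryonic stem cells, as measured by nascent RNA sequencing. A DHS was a member if its mean normalised count was 30 or more in the authors' deposited table for 0 h, and its row was then followed through the tables for 3, 6 and 12 h. The rule selected 2310 of 70586 DHSs, or 3.27%, and 7.19% of the 32143 DHSs with any count at 0 h. Members were thus chosen by the mean count over libraries at 0 h, and the 0 h values are given as a description only.

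RNA was labelled for 5 min with 4-thiouridine in E14 cells, a mouse embryonic stem cell line grown without feeder cells, with leukemia inhibitory factor and inhibitors of GSK3 and MEK, and the labelled RNA was sequenced (TT-seq). By sample title, 22 libraries form the time course, 2 in each of 11 groups. Untagged cells, which carry the auxin receptor osTIR1, were sampled at 0 h and after 3, 6 and 12 h of 500 nM of the auxin 3-IAA. Cells of 2 clones, each 1 line, with SPT16 fused to an auxin-inducible degron and a V5 tag were sampled at 0 h and after 3, 6 and 12 h of 3-IAA or of its ethanol vehicle. The tag or treatment field contradicted the title in 14 of these 22 libraries, and the general treatment protocol gives a single, longer duration, so the groups rest on the titles. Another 8 libraries, from a washout experiment, have no DHS table among the files analysed here. The labels assign 4 libraries to the 0 h DHS table and 6 to each of the other 3, and all 22 libraries name the DHS table of their own time only.

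A DHS is a stretch of DNA that is open to cutting by DNase I because nucleosomes there are displaced, usually by bound transcription factors. Active promoters and enhancers are DHSs, and RNA polymerase II starts at many of them and makes short-lived RNA, which steady-state RNA sequencing largely misses and a brief 4-thiouridine pulse captures. FACT, the complex of SPT16 and SSRP1, is a histone chaperone that takes histone H2A-H2B dimers off nucleosomes in the path of RNA polymerase and helps to put them back. In embryonic stem cells many distal DHSs are enhancers bound by the pluripotency factors OCT4, SOX2 and NANOG.

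The DHS tables give no value per library. They hold, for each DHS, a mean normalised count over libraries, a log2 fold change that is shrunken toward 0, its standard error (SE) and p-values before and after adjustment for multiple testing. The sources used here do not state which groups each table compares or in which direction, so changes carry the sign that the tables print, positive or negative, and no group is named as higher. "Called" means an adjusted p under 0.05. The tables also give no coordinates or widths, so no sequence or nearby gene can be attached to a row number, and counts of different DHSs are not per length. A DHS inside a transcribed gene can hold that gene's RNA, and this was not tested. Whether 2 libraries of a group were separate cultures is not stated for the untagged cells, so p-values there measure only the spread between these libraries. The tables of different times were normalised separately, and levels set across them carry that limit. As a check of the cell type, all 10 embryonic stem cell marker genes in the authors' deposited gene table for 0 h had a mean count per kb of gene span (256 to 2731) above those of all 15 markers of other cell types (0 to 34.2), of which 2, Neurod1 and Col3a1, were at 0. The RNA of Supt16 does not check the degron, which acts on the protein. In the authors' deposited gene table for 12 h its log2 fold change was 0.06 (adjusted p = 0.892), and that of Ssrp1, its partner, was 0.03 (adjusted p = 0.949).

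The members, 3.27% of the rows, held 78.9% of the summed mean count of the authors' deposited table for 0 h. That share is high by construction, because this count chose them. In the tables for 3, 6 and 12 h they held 79.3%, 81.4% and 77.9%. DHS100297 alone made up 18.7% of the table for 6 h. Their level was uneven: at 0 h the mean count ran from 30.008 to 16562, with a median of 64.9 and quartiles of 42.8 and 129. There were 808 members from 30 to under 50, 734 from 50 to under 100, 573 from 100 to under 300, 155 from 300 to under 1000 and 40 at 1000 or more. The rule's edge fell in a dense part of this range. DHS170758, DHS136655 and DHS119518 lay just inside at 30.008, 30.012 and 30.020 in the authors' deposited table, and DHS7213, DHS153789 and DHS131942 just outside at 29.995, 29.983 and 29.944. The members' median mean count was 37.1 in the table for 3 h, 20.02 in that for 6 h and 19.9 in that for 12 h. Of the members, 1390, 762 and 726 were at 30 or more there. The lower counts were not particular to members. Summed over all DHSs the mean count was 453469, 297420, 192609 and 182518 at 0, 3, 6 and 12 h. DHSs from 10 to under 30 at 0 h had medians of 16.4, 9.17, 5.09 and 5.31.

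At 0 h, no DHS of the authors' deposited table was called in either direction, among members or among all 32143 DHSs tested (0.0% each way). At an unadjusted p under 0.05 the table held 42 positive and 37 negative members of 2310, against 61 and 90 of all 32143 DHSs. Of those 32143, 27106 had a mean count under 10 at 0 h, so the 2 shares are not like for like. In the authors' deposited table the member with the lowest p was DHS163073, with a log2 fold change of -1.77 ± 0.43 (SE) and an adjusted p of 0.0511. Its neighbour by row number, DHS163074, stood at -1.60, DHS163072 at -1.69 and DHS163071 at -1.49. By 12 h these 4 rows of the authors' deposited table were between -0.24 and 0.01, and none was called at any time. DHS163070, next to these 4 by row number, was at -6.7e-06 at 0 h. Elsewhere in the authors' deposited table for 0 h, DHS433 stood at -2.23 ± 0.64 and DHS29795 at 1.01 ± 0.47. Nearly all other members were shrunken to 0 at this time, with 2300 of 2310 within 0.01 of 0 on the log2 scale.

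At 3 h, 4 members (0.173%) were called positive and 0 negative in the authors' deposited table, against a background of 0.0123% and 0.0% of the 32517 DHSs tested. These 4 were every DHS called at that time. At an unadjusted p under 0.05, 29 members were positive and 27 negative of 2310, against 77 and 97 of all 32517 DHSs. In both comparisons the background is mostly of rows with low counts. Of the 32517 DHSs, 27480 had a mean count under 10 at 0 h, so the shares are not like for like. The authors' deposited table gave DHS185339 a log2 fold change of 2.17 ± 0.37 (SE, adjusted p = 7.22e-06). The authors' deposited table had values of 1.88 ± 0.40 (adjusted p = 0.00206) for DHS36216, 1.87 ± 0.41 (adjusted p = 0.00317) for DHS100297 and 1.76 ± 0.36 (adjusted p = 0.001) for DHS173150. DHS100297 was the member with the highest count at 0 h. None of the 4 was called at 6 or 12 h: at 12 h their log2 fold changes in the authors' deposited table were 0.27, 0.24, -0.01 and 0.20, with SEs of 0.56, 0.58, 0.54 and 0.53. Shrinkage left 2293 of the 2310 members within 0.01 of 0 at 3 h, so sizes at that time can be read for 17 members only.

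These 4 DHSs also gained in their share of all DHS counts. DHS100297 alone held 3.65% of the summed mean count in the authors' deposited table for 0 h, 8.31% at 3 h, 18.7% at 6 h and 15.9% at 12 h. Its mean count was 16562, 24727, 36071 and 29057 in the 4 tables. DHS185339 went from 0.206% at 0 h to 2.60% at 6 h and 1.69% at 12 h of the authors' deposited tables. Across members the ratio of the share at 6 h to that at 0 h had a median of 0.675, and 19 members, picked after their values were seen, exceeded 3. Together these 19 held 5.15%, 12.5%, 28.9% and 24.7% of the authors' deposited tables for 0, 3, 6 and 12 h. All 19 had a positive sign at 3 h and at 6 h, and 18 at 12 h, where 1099, 1029 and 677 of all 2310 members had one. Signs at 3 h include those of values shrunken almost to 0. Of the 19, 4, 2 and 0 were called, beside 4, 62 and 354 of all members. Counts at 6 h chose the 19, so their share, signs and calls at 6 h are a description only. The 2 called at 6 h were DHS91904, at 1.64 ± 0.54 (SE, adjusted p = 0.0166), and DHS135677, at 1.06 ± 0.40 (adjusted p = 0.0339), both as in the authors' deposited table. All 11 members with an unadjusted p under 0.001 at 3 h were among the 19, and all 11 were positive. The share compares tables that hold different groups, and a gain of these few DHSs lowers the share of every other row by construction.

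**Figure D1:**
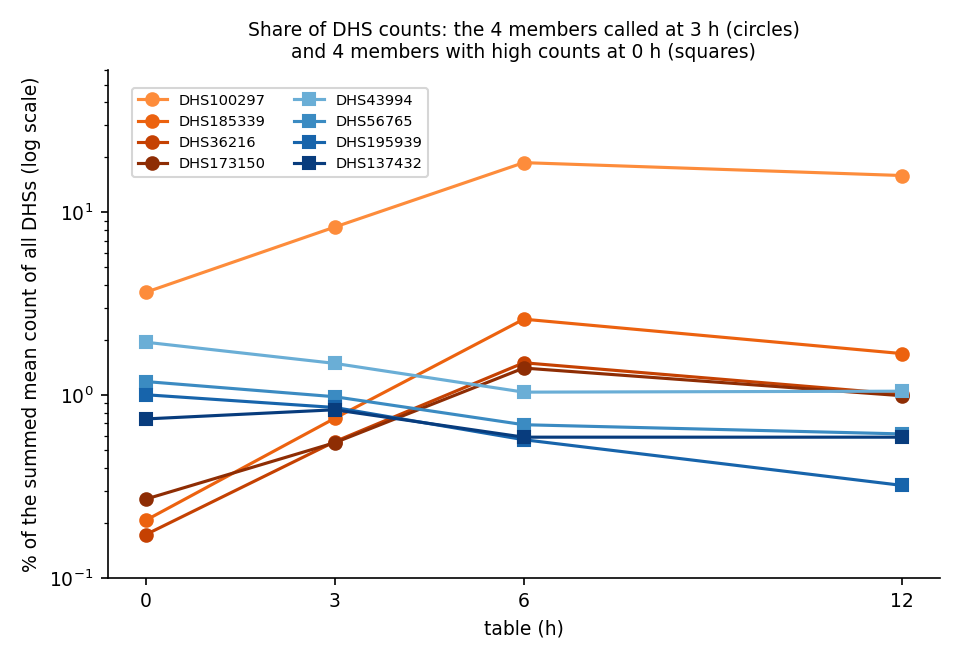
Share of the summed mean count of all DHSs (%, log scale) held by single members in the authors' deposited tables for 0, 3, 6 and 12 h. Circles are the 4 members called positive at 3 h. Squares are 4 members with high counts at 0 h, picked from those called negative at 12 h with their values known. DHS100297 rises from 3.65% to 18.7% at 6 h, while DHS195939 goes from 1.00% to 0.321% at 12 h. DHS67016, also among the 10 highest at 0 h but not shown, goes from 1.37% to 2.51% at 12 h.

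At 12 h the SEs of those 19 members ran from 0.46 to 0.62 in the authors' deposited table, with log2 fold changes from -0.01 to 0.54. The 3 of them with 1000 or more counts at 0 h, DHS100297, DHS135676 and DHS173150, had SEs of 0.54, 0.54 and 0.53. The other 37 members at that level had SEs from 0.21 to 0.35 in the authors' deposited table. The 3 members without a p-value at 12 h, DHS67183, DHS67184 and DHS91904, were all among the 19. The levels of the 19 in single libraries were not analysed here, so whether 1 library carries them was not tested.

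In the authors' deposited table for 6 h, 29 members (1.29%) were called positive and 33 (1.47%) negative of the 2242 with an adjusted p-value, against 1.36% and 0.963% of all 3530 DHSs that had one. The positive share lay near that background, which includes the members. Of the 1288 DHSs outside the set with an adjusted p, 1.48% were called positive and 0.0776% negative. That group is selected: an adjusted p at 6 h needed a mean count of 5.71 there. With the adjustment run over every DHS that has a p-value the members' shares were 0.260% and 0.216%. At an unadjusted p under 0.05, 184 members were positive and 239 negative of 2310, against 541 and 351 of all 29476 DHSs. Of those 29476, 24439 had a mean count under 10 at 0 h, so these shares are not like for like either. The median log2 fold change of all members was -0.02. The called positives had a median of 1.26 and the called negatives of -1.41. The most positive in the authors' deposited table was DHS430, at 1.77 ± 0.33 (SE, adjusted p = 2.47e-05). DHS85285 at 1.77, DHS91904 and DHS158357 at 1.64 and DHS110699 at 1.58 followed in that table, and the next 5, DHS16943, DHS101984, DHS24842, DHS14473 and DHS80821, came after it in that order, from 1.57 down. On the other side, the authors' deposited table gave DHS148529 -2.71 ± 0.87 (adjusted p = 0.0191), DHS156485 -2.37 ± 0.48 (adjusted p = 8.91e-05) and DHS72346 -2.14 ± 0.56 (adjusted p = 0.00228). DHS148529 rested on a mean count of 13.0 at that time and DHS156485 on 48.9. The remaining 68 members carried no adjusted p at 6 h, and the lowest mean count with one was 5.71.

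At 12 h the calls were mostly negative. In the authors' deposited table, 308 members (13.5%) were called negative and 46 (2.02%) positive of 2282 with an adjusted p, against 5.73% and 3.6% of all 5638 DHSs with one. With the adjustment run over every DHS that has a p-value, in place of those with an adjusted p, the shares of members were 6.63% negative and 0.867% positive. Members made up 95.4% of all 323 negative calls and 22.7% of all 203 positive calls, and were 2282 of the 5638 DHSs with an adjusted p. Of the 354 called members 87.0% were negative, and of the 172 called DHSs outside the set 8.72% were. That second group is selected: a DHS with a low count at 0 h received an adjusted p at 12 h only if its mean count there reached 3.32, so its signs are not a like-for-like comparison. At an unadjusted p under 0.05, 616 members were negative and 120 positive of 2307, against 785 and 754 of all 29394 DHSs. Of those 29394, 24361 had a mean count under 10 at 0 h, so these shares are not like for like either. The median log2 fold change of all 2310 members was -0.27, against -0.02 over all DHSs with a value, and 70.7% of members had a negative sign against 58.0%. The called negatives had a median of -1.78 with quartiles of -2.39 and -1.39, and the called positives a median of 1.40 with quartiles of 1.21 and 1.72. The smallest called change was 0.65 in size among the negatives and 0.81 among the positives.

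The share called negative at 12 h was higher in each higher band of level at 0 h. From the lowest to the highest of the 5 bands of mean count, the authors' deposited table called 2.17%, 6.15%, 24.1%, 51.0% and 75% of members negative. Positive calls made up 2.17%, 2.46%, 1.57%, 1.31% and 0.0% of the same bands. The median log2 fold change over all members of a band, called or not, was -0.12, -0.21, -0.51, -0.87 and -1.16, and the negative signs were 60.6%, 68.4%, 80.8%, 91.6% and 90.0%. Precision also moved with level: the median SE at 12 h was 0.55 in the lowest band and 0.28 in the highest, and the medians are of values shrunken more where the SE is wide. The part of precision in either gradient was not tested. At 6 h the authors' deposited table called fewer members negative in every band, with 0.134%, 1.10%, 2.62%, 5.16% and 2.5%. Negative signs there were 48.1%, 53.0%, 64.0%, 69.0% and 72.5%, and the medians were 0.0070, -0.01, -0.08, -0.13 and -0.07.

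**Figure D2:**
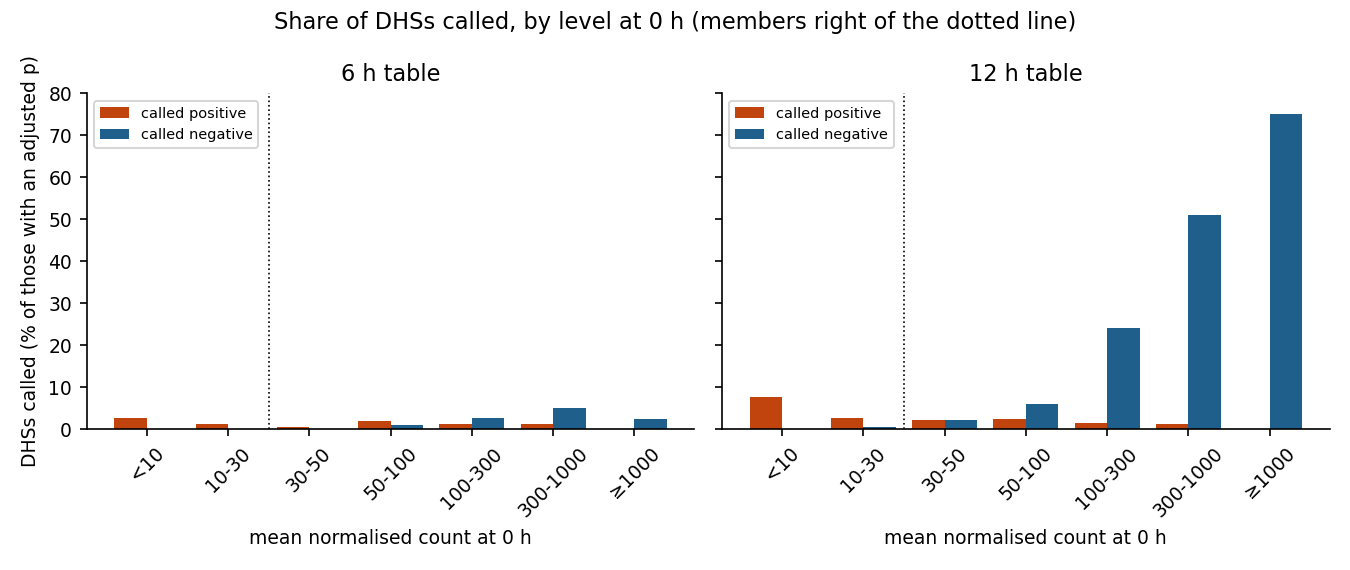
Share of DHSs called positive or negative (%) among DHSs that have an adjusted p, from the authors' deposited tables for 6 h and 12 h, by mean normalised count at 0 h; the 5 bands right of the dotted line are members. At 12 h the negative share climbs from 2.17% at 30 to 50 counts to 75% at 1000 or more.

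Among the 10 members with the highest counts at 0 h, 8 were called negative at 12 h. The authors' deposited table gave DHS43994, second in level, a log2 fold change of -2.18 ± 0.23 (SE, adjusted p = 3.21e-19) and DHS195939 one of -2.73 ± 0.29 (adjusted p = 3.21e-19). Their mean counts in the authors' deposited tables were 8836, 4438, 2000 and 1918 for DHS43994 and 4557, 2545, 1098 and 585 for DHS195939 at 0, 3, 6 and 12 h. DHS43993 stood at -2.08, DHS141848 at -1.59, DHS56765 at -1.42, DHS56763 at -1.34, DHS137432 at -1.31 and DHS67072 at -1.21 in the authors' deposited table for 12 h. Not called in the authors' deposited table were the other 2, DHS100297, described above, and DHS67016, at 0.10 ± 0.25 (adjusted p = 0.848). Leaving aside the 3 members of the group of 19, 37 members had 1000 or more counts at 0 h, and 30 of them were called negative. The 7 exceptions, singled out after their values were seen, were DHS67016, DHS161268 (0.04), DHS67075 (-0.06), DHS123358 (-0.38), DHS67181 (-0.43), DHS79236 (-0.47) and DHS161270 (-0.55), with the log2 fold changes of the authors' deposited table for 12 h. Of these, DHS161268 and DHS67075 had values near 0 on SEs of 0.21 and 0.33.

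**Figure D3:**
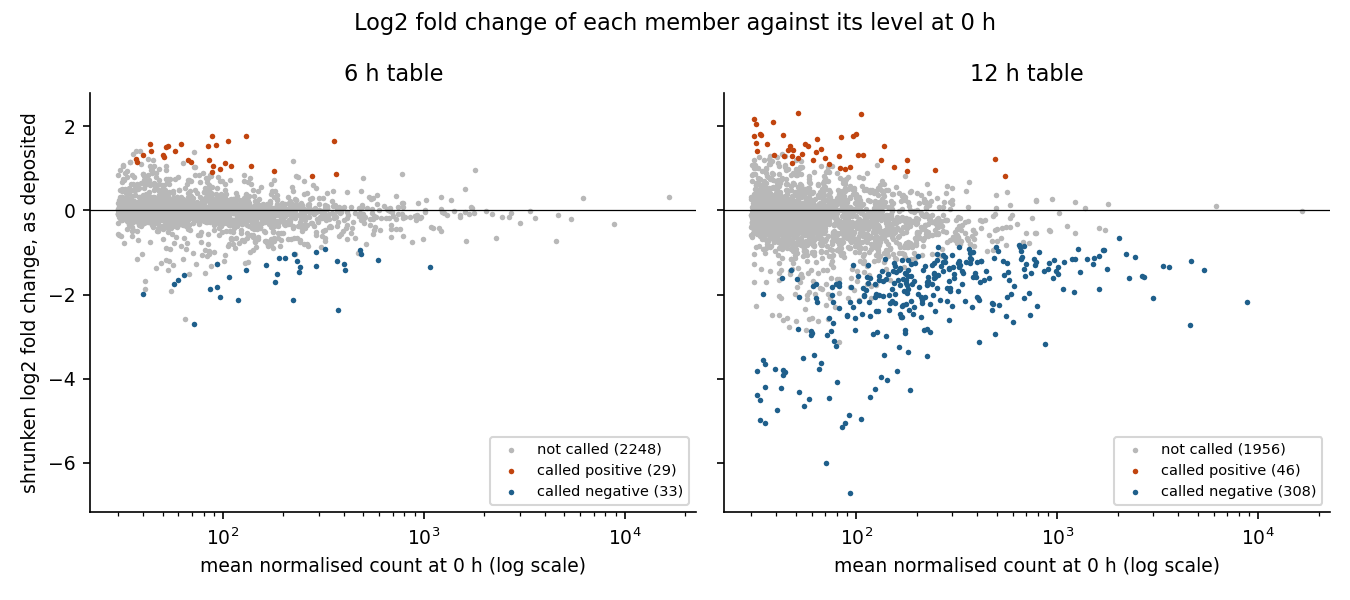
Shrunken log2 fold change of each of the 2310 members in the authors' deposited tables for 6 h and 12 h against its mean normalised count at 0 h (log scale). Points are single DHSs, coloured where called; at 12 h the 308 negative calls spread across the range of levels and the 46 positive calls lie at low and middle levels.

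The largest negative values came from DHSs with few counts at 12 h. DHS191329 had a log2 fold change of -6.72 ± 2.62 (SE, adjusted p = 0.00061) on a mean count of 18.0, and DHS186164 had -6.01 on 13.1, both from the authors' deposited table. The other 8 of the 10 most negative, DHS39553, DHS131393, DHS17418, DHS127621, DHS77428, DHS173643, DHS47493 and DHS110308, lay between -5.13 and -4.65. Of the called negatives 61 had an SE above 1, and none of the called positives did. The most positive calls were smaller and tighter. For DHS111909 the authors' deposited table gave 2.32 ± 0.46 (adjusted p = 7.14e-06), for DHS158357 2.28 ± 0.45 (adjusted p = 6.54e-06) and for DHS80517 2.17 ± 0.44 (adjusted p = 1.84e-05). DHS1330, DHS39333, DHS158359, DHS129148, DHS22074, DHS16943 and DHS156513 followed, from 2.09 down to 1.76. The called positives had a median count of 61.9 at 0 h, beside 64.9 for all members, and the called negatives one of 210. The 2 directions overlapped in level, with 17 positive and 17 negative calls from 30 to under 50 counts.

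Members called at 12 h mostly had the same sign at 6 h, at a smaller size. The 2 tables rest on different libraries per the labels. Of the 308 members called negative at 12 h, 287 (93.2%) were negative at 6 h, where 55.5% of all members were, and their median in the authors' deposited table went from -0.28 at 6 h to -1.78 at 12 h. The change was smaller in size at 6 h in 306 of them. At 3 h 209 of the 308 (67.9%) were negative, where 52.4% of all members were. All 46 called positives were positive at 6 h, with a median of 0.62 in the authors' deposited table, and 34 were positive at 3 h. Of all 2310 members 2293 lay within 0.01 of 0 at 3 h, so most signs at that time belong to values shrunken almost to 0. In the other direction, all 33 members called negative at 6 h were negative at 12 h, with a median of -2.10, and 28 of the 29 called positive were positive, with a median of 0.73. The exception was DHS24842, at 1.54 ± 0.41 (SE) at 6 h and -0.41 ± 0.52 at 12 h in the authors' deposited tables.

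Called at both 6 and 12 h were 32 members, 24 negative and 8 positive, and 0 changed sign. Over all DHSs 38 were called at both times, and 38 kept their sign. The 24 and 8 members are 72.7% of the negative and 27.6% of the positive calls among members at 6 h, and 7.79% and 17.4% of those at 12 h. DHS191329, DHS47493, DHS88167, DHS72346 and DHS156485 were among the members with the largest sums of both changes. DHS156485 was at -2.37 and -2.29, and DHS88167 at -1.52 and -4.26, at 6 and 12 h in the authors' deposited tables. On the positive side DHS158357 went from 1.64 to 2.28 and DHS16943 from 1.57 to 1.79. DHS430, the most positive member at 6 h, was at 0.02 ± 0.50 at 12 h in the authors' deposited table.

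**Figure D4:**
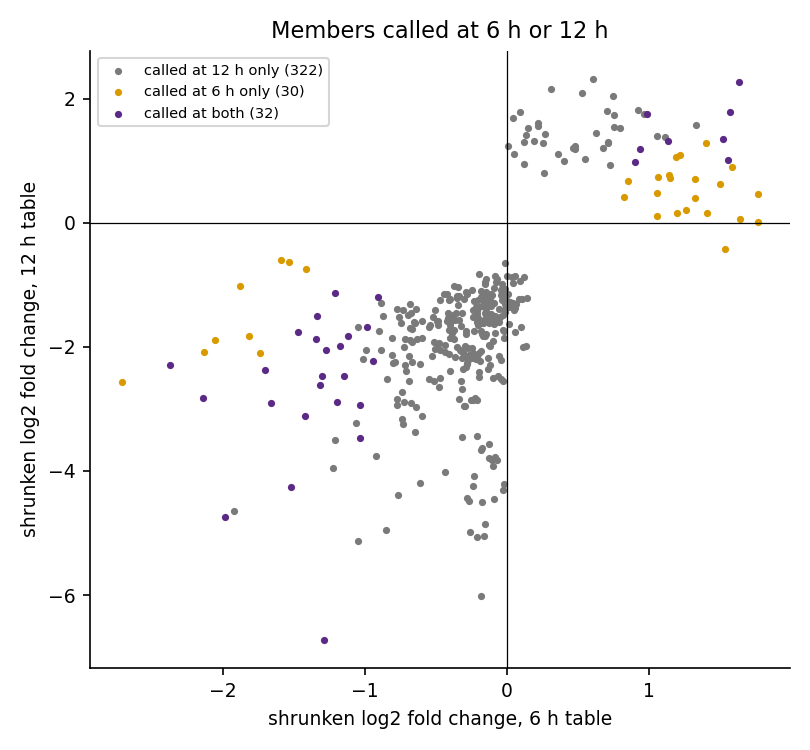
Shrunken log2 fold change at 12 h against that at 6 h in the authors' deposited tables, for the 384 members called at either time. Each point is 1 DHS, coloured by when it was called; the 32 called at both times (24 negative and 8 positive) all keep their sign.

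Many members had consecutive row numbers. What the numbering follows is not given in the sources used here, and consecutive rows may share reads or a transcript, so they are not independent. The 2310 members fell into 1408 runs of consecutive numbers, of which 920 held 1 member, and 1390 members (60.2%) lay in the 488 runs of 2 or more. Members next to each other in this numbering had the same sign in 64.2% of 902 pairs at 3 h, 75.7% at 6 h and 85.3% at 12 h of the authors' deposited tables. Negative signs made up 52.4%, 55.5% and 70.7% of all members at these times, and the more uneven the signs, the more often any pair shares one. Where both of a pair were called at 12 h, as in 103 pairs, the signs were the same in 103. There were 24 runs of 3 or more called members at 12 h, with 91 members in all, and 1 of the 24 was positive.

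The longest run of members was DHS137421 to DHS137435, with 15 members and counts from 200 to 3359 at 0 h. In the authors' deposited table for 12 h all 15 were negative and 13 were called, with a median of -1.22 and SEs from 0.24 to 0.40. DHS137421, at -0.54, and DHS137428, at -0.74, were not called. None was called at 6 h, where the 15 lay between -0.11 and 0.14. The 5 longest runs of called members were DHS137429 to DHS137435 (7 members, median -1.31), DHS137422 to DHS137427 (6, -1.22), DHS187582 to DHS187587 (6, -1.34), DHS67479 to DHS67483 (5, -1.77) and DHS92555 to DHS92559 (5, -1.24) in the authors' deposited table. Another run, singled out after its values were seen, was DHS43991 to DHS43994, with counts from 1617 to 8836 at 0 h. Its 4 members were between -2.18 and -1.61 at 12 h, and the authors' deposited table gave 5.80e-09 as the highest adjusted p among them. The same 4 were at 6 h between -0.72 and -0.31, and none was called. DHS58372 to DHS58375 had 3 of 4 members called already at 6 h, with a median of -1.04 then and -2.95 at 12 h. The positive run was DHS111909 to DHS111911, at 2.32, 0.96 and 0.94 in order of size.

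**Figure D5:**
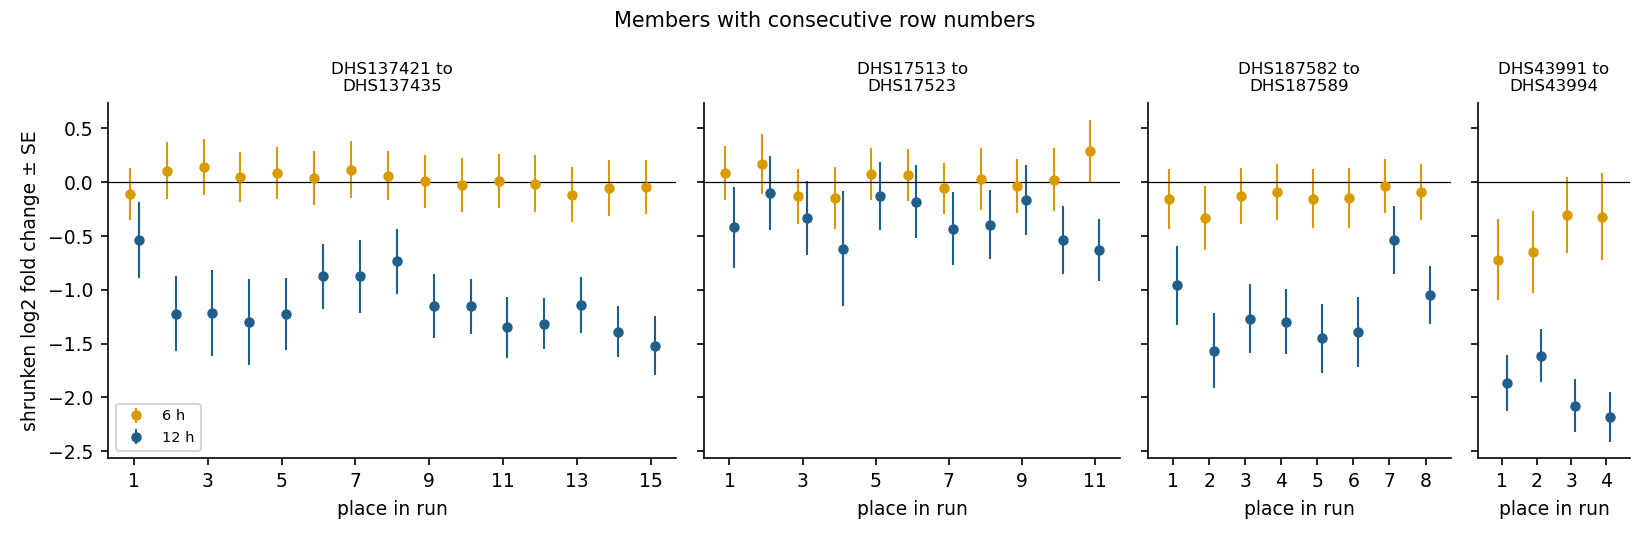
Shrunken log2 fold change ± SE at 6 h and 12 h in the authors' deposited tables for members with consecutive row numbers, in 4 runs chosen after their values were seen. The x axis is the place in the run; DHS137421 to DHS137435 lie near 0 at 6 h and between -1.52 and -0.54 at 12 h, and DHS17513 to DHS17523 hold 0 called members at either time.

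The other runs of 8 or more members had medians from -1.62 to -0.25 at 12 h in the authors' deposited table. DHS17513 to DHS17523, with 11 members and counts from 91.7 to 552 at 0 h, were all negative at 12 h, with a median of -0.39 and 0 called. DHS19115 to DHS19128, with 14 members, held 0 called and a median of -0.34. DHS12183 to DHS12193 were all negative, with 5 of 11 called and a median of -1.62. DHS187582 to DHS187589 were all negative as well, with 7 of 8 called and a median of -1.28. DHS50000 to DHS50007 held 7 negative and 1 positive, with 3 called and a median of -0.78. DHS69360 to DHS69369 held 6 negative and 4 positive, with 3 called and a median of -0.25, and differences between runs were not tested.

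The eRNAs, the separate class of enhancer transcripts in the deposited tables, gave another set at the same cut. There were 3058 eRNAs with a mean count of 30 or more at 0 h. Of the 3053 of these that had an adjusted p at 12 h, the authors' deposited table called 3.73% negative and 1.15% positive, and the median log2 fold change of the 3058 was -0.16. At 6 h the shares were 0.954% and 5.72% of 2202, and at 3 h 0.0% and 5.35% of 1438. The strongly transcribed DHSs had 13.5% negative calls at 12 h beside 3.73% for the eRNAs, and 1.29% positive calls at 6 h beside 5.72%. These calls rest on separate adjustments over different sets of rows, so the shares are not like for like. Without adjustment the classes lay closer. With p under 0.05, 184 of 2310 members and 308 of 3058 eRNAs were positive at 6 h. At 12 h, 616 of 2307 members and 546 of 3054 eRNAs were negative. Among all eRNAs with an adjusted p, 137 of 2285 were called positive at 6 h and 122 of 6056 negative at 12 h. The difference between the classes was not tested, since both come from the same libraries and their regions may overlap.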

How the data were processed

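The authors' deposited tables for DHSs, eRNAs and genes at 0, 3, 6 and 12 h were used (12 tables). The log2 fold changes and their SEs are the authors' deposited values, shrunken toward 0, as the values themselves show. The p-values and adjusted p-values are the authors' deposited values, and the adjusted ones equalled a Benjamini-Hochberg adjustment over the rows that carry one, to within 2.39e-13. The mean normalised count is likewise deposited by the authors, over the libraries of a table. Per the submitters' processing notes STAR, deepTools and mm10 were used, and the counting, the fitting tool and all versions are not given in the sources used here. No depth or count per library accompanies the DHS tables, so no interval of a single DHS and no library was recomputed. An interval of the members' median was computed only to judge other settings.

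Members were the DHSs with a mean count of 30 or more at 0 h. The members and lists were chosen with earlier results of these data known. From the tables, the calls (adjusted p under 0.05), signs, medians, shares and runs of consecutive row numbers were computed with Python 3.11.15, pandas 2.3.3 and numpy 2.4.6. The adjustment was tested on simulated data. Levels were also split at 10, 50, 100, 300 and 1000 counts. Named DHSs were the 10 most positive and 10 most negative called members per table (every one at 3 h), the 10 with the highest count at 0 h, 3 on each side of the limit of 30, members called at 6 and 12 h (the 10 largest sums and any with opposite signs) and the 5 longest called runs. Every other DHS or run named lies outside these lists and was picked with the values known, also where its paragraph does not say so. The gene table was used for markers, and the tables for PROMPTs and the washout were not used.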

Additional observations from a re-analysis of the deposited data

How the results depend on the processing

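The DHS tables hold summaries over libraries, so no library could be left out and every value rests on the authors' fit. No paired analysis was possible because the DHS tables give no value per library. Low counts limit the lower bands, where SEs are widest. Of 102 values recomputed under other settings, 58 moved little and 44 moved. The median at 6 h turned from -0.0234 to 0.0072 when the top rows of the 6 h table itself were taken. The cause was not tested. Under every setting run, 0% of members were called negative at 3 h. No DHS of the 32517 tested was called negative at that time, so other choices of rows or stricter limits could only return 0. These 13 values are among the 58 that moved little. With a membership limit of 20 the median log2 fold change was -0.0124 at 6 h and -0.19 at 12 h. With a limit of 50, 0.266% were called positive at 3 h, and the medians were -0.0426 at 6 h and -0.40 at 12 h. With a limit of 100, 0.521% were positive at 3 h, 3.13% negative at 6 h and 32.2% negative at 12 h, with medians of -2.7e-07, -0.0887 and -0.63 at 3, 6 and 12 h. Requiring 30 or more in all 4 tables gave 0.623%, 2.65% and 3.29% positive at 3, 6 and 12 h and 28.5% negative at 12 h, with medians of 2.9e-07, -0.0115 and -0.45. A Benjamini-Hochberg adjustment over every row with a p gave 0.260% positive and 0.216% negative at 6 h, and 0.867% and 6.63% at 12 h. Over rows at 10 or more counts it gave 0.353% positive at 3 h and 3.22% at 12 h. A threshold of 0.01 gave 0.401% positive and 0.446% negative at 6 h, and 0.876% and 6.84% at 12 h. A threshold of 0.1 gave 0.303% positive at 3 h, and 2.36% positive and 2.41% negative at 6 h. Settings chosen after seeing the data follow. Selecting on 30 or more counts in each time's own table gave 0.282%, 2.49% and 4.83% positive at 3, 6 and 12 h, 2.75% and 25.2% negative at 6 and 12 h, and medians of 1.5e-08 at 3 h and -0.35 at 12 h. Taking the 2310 rows with the highest counts in each table gave 4.85% positive at 12 h and medians of 2.7e-08, 0.0072 and -0.12. Keeping 1 member per run gave 0.284% positive at 3 h and a median of -0.24 at 12 h. A minimum log2 change of 1 and an SE of at most 1 moved no value beyond the limits used. Centring on the median of all rows moved none either. For shares the limit was 1.5 times. For medians the limit was the 95% interval of the main median over the members. That interval treats members as independent, which consecutive rows are not, so it is a working limit only.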
